A study of Homo sapiens with 12 samples.

Results

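FOXO3 and genes known to respond to FOXO factors (TXNIP, BCL6, CITED2, BCL2L11, FBXO32, CAT, CCNG2 and PDK4) were followed in RD cells, a line from an embryonal rhabdomyosarcoma. Of the 9 genes listed, 8 had at least 1 probe set with that single gene symbol in the array annotation, of 11963 genes so annotated in all. They were read by 17 probe sets of 19065. The annotation used here gave no probe set for FBXO32, which encodes a muscle ubiquitin ligase subunit.

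FOXO factors are forkhead transcription factors that sit downstream of insulin and growth factor signalling. When AKT or SGK kinases phosphorylate them they bind 14-3-3 proteins and leave the nucleus. When that signal is low they enter the nucleus and switch on genes of cell cycle arrest, stress defence, cell death and fasting metabolism, in muscle and in tumour cells alike. The construct of the study carries the end part of another member of the family, FOXO1, once named FKHR, fused to the DNA-binding part of PAX3. That fusion marks alveolar rhabdomyosarcoma.

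In PAX3-FKHR-ER, an altered ligand-binding domain of the estrogen receptor is attached to the fusion, and RD cells were transduced with it or with the vector pK1 alone. Each was given 30 nM 4-hydroxytamoxifen (4-OHT), the ligand of that domain, for 24 h or was left without it. The 4 groups were PAX3-FKHR-ER with 4-OHT, PAX3-FKHR-ER without 4-OHT, pK1 with 4-OHT and pK1 without 4-OHT, each with 3 arrays numbered 1 to 3. The design text speaks of 3 populations per construct. Whether a replicate number marks a population is not stated, so the p-values measure the spread between these samples, which may be partly technical. Cells with pK1 and 4-OHT are the control for the drug itself, and PAX3-FKHR-ER without 4-OHT is the control for a fusion that awaits its ligand.

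The 4 arrays of replicate 1 stood apart from the other 8. Median signals of the 24 poly-A spike-in probe sets were 2.58 to 7.41 on them and 117.5 to 291.0 on the arrays of replicates 2 and 3. Probe sets of the genes in the construct did not all follow the labels. FOXO1 (202723_s_at) read 138.4, 78.3 and 83.9 in PAX3-FKHR-ER cells with 4-OHT and 142.0, 146.3 and 123.8 in PAX3-FKHR-ER cells without it. It read 120.9, 42.4 and 46.0 in pK1 cells with 4-OHT and 214.0, 52.1 and 36.1 in pK1 cells without it (replicates 1, 2 and 3 in that order, here and below). ESR1 (211235_s_at) read 7.50, 121.3 and 76.2 in PAX3-FKHR-ER cells without 4-OHT, against 57.0, 4.16 and 12.7 in pK1 cells without it. Both were higher under the PAX3-FKHR-ER label in replicates 2 and 3 and lower in replicate 1, without 4-OHT. A second FOXO1 probe set (202724_s_at) went against the label with 4-OHT in replicates 2 and 3, at 3.72 and 16.4 in PAX3-FKHR-ER cells and 56.4 and 36.6 in pK1 cells. The brightest ESR1 probe set was another, 215551_at (mean 43.4), and the brightest of PAX3 was 207680_x_at (mean 59.8). Of these 3 genes, 6 probe sets were above the signal filter. With all 12 arrays 0 of the 6 were called between the constructs, as were 0.0% of all probe sets. In replicates 2 and 3 with the number as a block 0 were called too, against 0.0075% of all without 4-OHT and 0.158% with it. Which part of each gene these probe sets read is not given in the sources used here. Group names below are therefore the labels' names. Of 9 markers listed for RD cells (7 myogenic genes with VIM and NES, which many other cells make too), 7 were above the signal filter, MYOD1 with them, while MYF5 and PAX7 were not. VIM was the brightest at a mean of 5430, so it weighs most in their sum. Their summed signal ran from 10270 to 11980 and from 9153 to 12590 in PAX3-FKHR-ER cells with and without 4-OHT, and from 6354 to 12480 and from 5174 to 11150 in pK1 cells with and without it. Both low ends were pK1 replicate 2. In replicate 2 VIM was higher in PAX3-FKHR-ER than in pK1 cells by 0.09 with 4-OHT and 0.51 without, in log2(signal + 16). DES, a myogenic marker, was higher there by 1.71 with 4-OHT and 2.30 without. In replicates 1 and 3 DES went the other way, by -0.67 and -1.29 with 4-OHT and by -0.74 and -0.59 without. Of 10 markers of other cell types, 3 were above the filter, and their summed signal lay between 145.2 and 310.5 on all 12 arrays.

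Promoter windows of 8 of the 9 genes were in the RefSeq table of GRCh38.p14, 15 windows in all, each running from 250 bases before a start to 50 after it. The FOXO recognition motif GTAAACA, searched on both strands (TGTTTAC on the other), was found in 2 of the 15. It was also found in 1202 of 35116 windows in the whole table (3.42%). The 2 windows are shown because they are where the motif lies in one gene that the arrays measured well (TXNIP) and in one that they did not (BCL2L11). Capitals mark the motif. The TXNIP window is chr1:145996530-145996829 on the minus strand, with the motif 124 bases before the start. The BCL2L11 window is chr2:111120664-111120963 on the plus strand, with the motif 223 bases before the start.
TXNIP: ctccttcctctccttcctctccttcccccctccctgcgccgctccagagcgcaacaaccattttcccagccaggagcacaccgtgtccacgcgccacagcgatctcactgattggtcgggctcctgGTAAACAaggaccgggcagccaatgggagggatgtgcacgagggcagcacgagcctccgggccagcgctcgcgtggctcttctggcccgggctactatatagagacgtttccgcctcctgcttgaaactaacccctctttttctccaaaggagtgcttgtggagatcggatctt
BCL2L11: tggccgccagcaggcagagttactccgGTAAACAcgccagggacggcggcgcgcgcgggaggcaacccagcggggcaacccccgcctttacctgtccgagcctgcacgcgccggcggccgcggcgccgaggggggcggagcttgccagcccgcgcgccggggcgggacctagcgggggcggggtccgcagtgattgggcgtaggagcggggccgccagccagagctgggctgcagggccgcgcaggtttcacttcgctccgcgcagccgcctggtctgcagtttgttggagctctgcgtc
The E box CACGTG, which reads the same on both strands, was in 1 window each of CCNG2 and CITED2 and in 7.26% of all windows. These matches describe the letters of the windows and carry no measurement of binding.

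No listed gene passed the test in any comparison. Of the 17 probe sets, 13 lay above the filter on mean signal (36.7) and 6 genes were therefore tested, namely FOXO3, TXNIP, BCL6, CITED2, CAT and CCNG2. With all 12 arrays in a limma fit of log2(signal + 16), 0 of the 13 had an adjusted p under 0.05 for 4-OHT in PAX3-FKHR-ER cells, where 0.0% of the 13329 probe sets tested were called and 0.465% had an unadjusted p under 0.05. The changes of the 13 ran from -0.28 to 0.20 with a median of -0.08, against a median of -0.01 over all probe sets tested. For 4-OHT in pK1 cells 0 of the 13 passed, of 0.0% called in all (0.54% by unadjusted p), with changes from -0.65 to 0.22 and a median of -0.14 against -0.03. The 4-OHT change in PAX3-FKHR-ER cells minus that in pK1 cells also gave 0 of 13, of 0.0% called (0.293% by unadjusted p), with a median of 0.19 against 0.02. In bulk RNA, fewer cells making a transcript and less of it per cell cannot be told apart.

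Pairing the arrays by construct and replicate number, and leaving out replicate 1, changed none of those calls. In that fit of the 8 arrays of replicates 2 and 3 with the replicate block, 1.4% of all probe sets were called for 4-OHT in PAX3-FKHR-ER cells (186) and 0 of the 13. For 4-OHT in pK1 cells 0.0% were called, and for the difference between constructs 0.0525% (7), again with 0 of the 13 in each. By unadjusted p under 0.05 the counts were 1 of 13 for 4-OHT in PAX3-FKHR-ER cells (11.8% of all probe sets), 2 of 13 in pK1 cells (5.7%; TXNIP 201008_s_at and CCNG2 211559_s_at, both lower with 4-OHT) and 0 of 13 for the difference (9.85%). In pK1 cells the other 2 CCNG2 probe sets changed by 0.27 (202769_at) and 0.40 (202770_s_at) in that fit, and the other 2 TXNIP probe sets by -0.10 and -0.22. The TXNIP 201008_s_at change in pK1 cells was -1.24 in replicate 2 and 0.03 in replicate 3. The 13 changes with 4-OHT in PAX3-FKHR-ER cells in that fit ran from -0.40 to 0.34 with a median of -0.04, against -0.02 over all probe sets. In the 12-array limma fit with the block, 0 of 13 had an unadjusted p under 0.05 for 4-OHT in PAX3-FKHR-ER cells (894 of all 13329). In pK1 cells 3 of 13 had (916 of all), and for the difference 0 of 13 (634 of all).

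**Figure D1:**
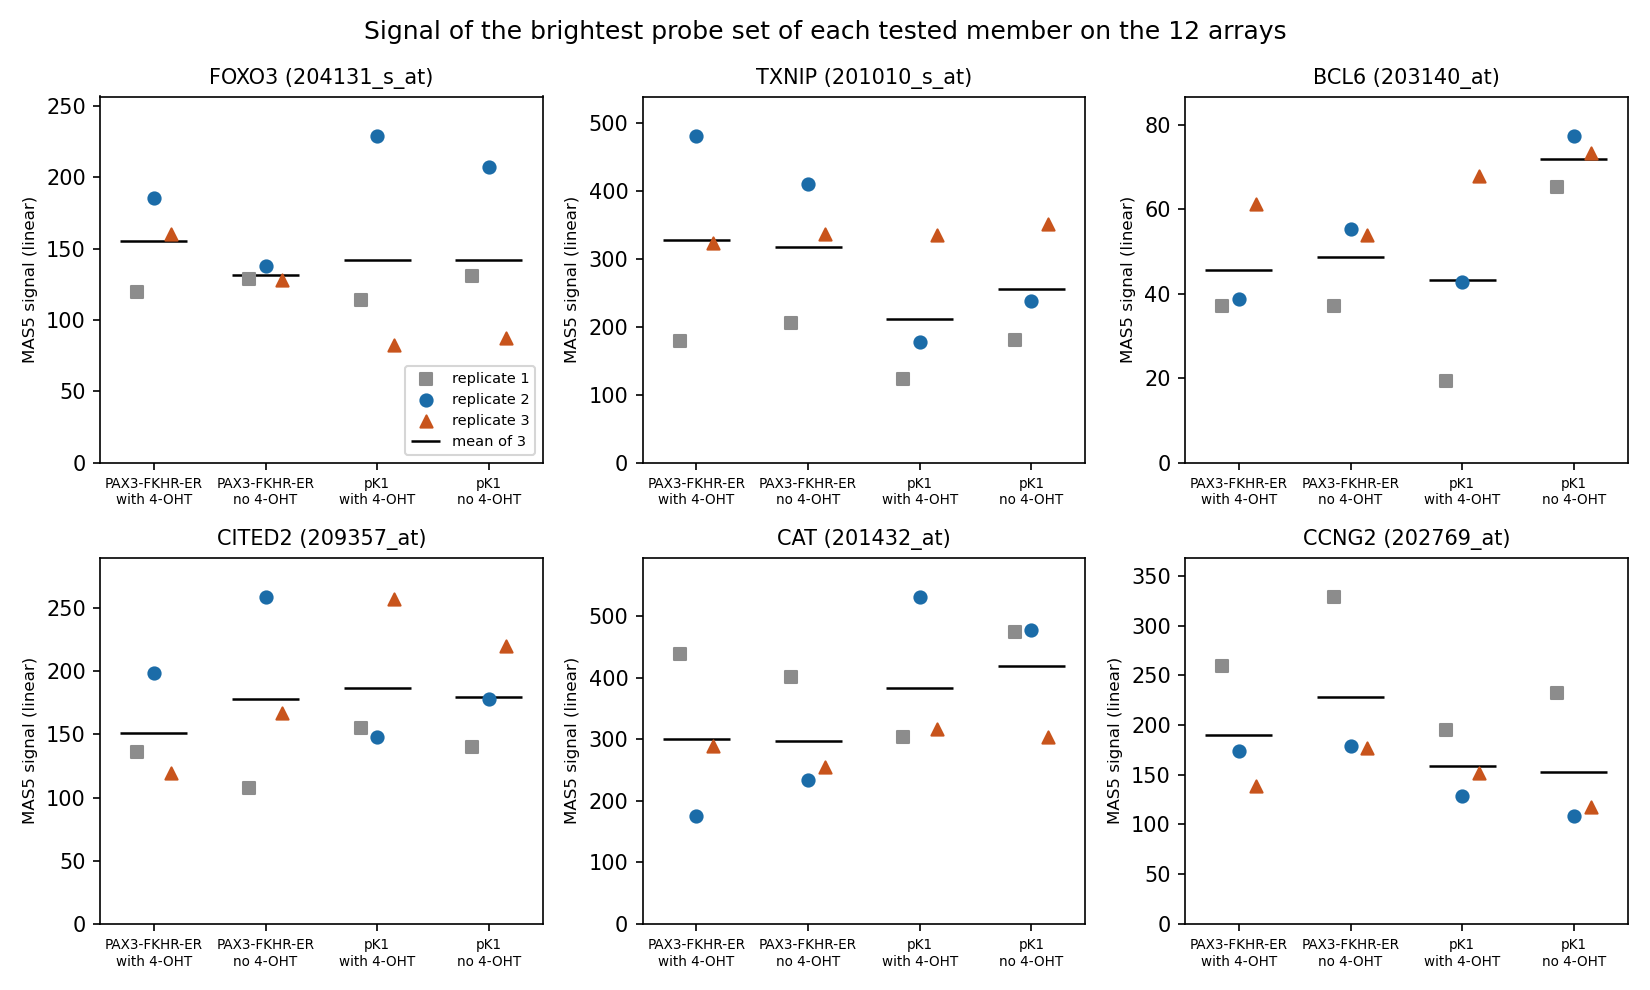
MAS5 signal (linear scale, y axis from 0) of the brightest probe set of each tested gene on the 12 arrays, by group from PAX3-FKHR-ER with 4-OHT on the left to pK1 without 4-OHT on the right; squares, circles and triangles are replicates 1, 2 and 3 and the bar is the mean of 3. Groups that share a construct or a treatment overlap in every panel except that all 3 BCL6 values in PAX3-FKHR-ER cells without 4-OHT lie under all 3 in pK1 cells without 4-OHT.

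FOXO3 is the one FOXO factor among the genes, and its RNA was measured at an intermediate level. Its probe set (204131_s_at) read 119.9, 185.2 and 160.6 in PAX3-FKHR-ER cells with 4-OHT and 128.6, 137.9 and 127.8 in PAX3-FKHR-ER cells without it. In pK1 cells it read 113.7, 229.2 and 82.4 with 4-OHT and 130.7, 207.0 and 87.4 without. The pK1 arrays of one replicate number lay close together while the numbers lay far apart, with replicate 2 highest and replicate 3 lowest. The change with 4-OHT in PAX3-FKHR-ER cells was 0.20 ± 0.35 on the log2(signal + 16) scale (SE, 95% interval -0.57 to 0.97, limma adjusted p = 1.0). It was -0.09, 0.39 and 0.30 within replicates 1, 2 and 3. With replicates 2 and 3 paired it was 0.34 ± 0.16 (95% interval -0.02 to 0.70, adjusted p = 0.447), and the change in pK1 cells was 0.03 ± 0.16. The difference between these 2 changes was 0.31 ± 0.22 and did not pass (limma adjusted p = 0.710). A further 3 probe sets are annotated to FOXO3 together with FOXO3B, a near copy of FOXO3, and were left out since they cannot be assigned to either. The brightest of those averaged 105.4 ± 11.5 in PAX3-FKHR-ER cells with 4-OHT and 97.8 ± 18.3 without it, and 94.1 ± 32.8 in pK1 cells with 4-OHT and 91.5 ± 23.2 without it (SD, n = 3 each).

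CCNG2 encodes cyclin G2, an atypical cyclin tied to cell cycle arrest and a classical FOXO target. Its brightest probe set (202769_at) read 258.9, 173.4 and 138.1 in PAX3-FKHR-ER cells with 4-OHT and 328.7, 179.2 and 176.4 in PAX3-FKHR-ER cells without it. Its pK1 values were 195.1, 128.4 and 151.6 with 4-OHT and 232.4, 108.5 and 117.3 without. Within each replicate number the PAX3-FKHR-ER array with 4-OHT lay under the one without it, by 0.33, 0.04 and 0.32 on the log2(signal + 16) scale. CCNG2 202769_at was 1 of 2 probe sets among the 13 with that lower direction in all 3 numbers, a direction that 14.9% of all probe sets had. The other was CITED2 207980_s_at. Over 12 arrays the CCNG2 change was -0.23 ± 0.34 (SE, 95% interval -0.98 to 0.52, limma adjusted p = 1.0). The other 2 CCNG2 probe sets gave -0.04 ± 0.37 (202770_s_at) and -0.18 ± 0.25 (211559_s_at), and neither passed. With the replicate block over 12 arrays the change of 202769_at had an SE of 0.15 (95% interval -0.55 to 0.09) and a limma adjusted p of 0.853.

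Without 4-OHT, 2 of the 3 CCNG2 probe sets were higher in PAX3-FKHR-ER than in pK1 cells in each replicate number, by 0.47, 0.65 and 0.53 for 202769_at and by 0.51, 0.16 and 0.41 for 202770_s_at. The other, 211559_s_at, differed by 0.48, 0.24 and -0.016. Of all probe sets 12.4% were higher in all 3 numbers, so 2 of 13 is close to that share. Another 2 of the 13, BCL6 203140_at and CAT 201432_at, were lower in all 3 numbers, as were 13.3% of all probe sets. The 202769_at difference was 0.55 ± 0.34 (95% interval -0.20 to 1.30, limma adjusted p = 1.0) and the groups overlapped. With the replicate number as a block over 12 arrays its SE was 0.17 and its adjusted p 0.661. In replicates 2 and 3 alone with the block it was 0.59 ± 0.22, with an adjusted p of 0.469. With 4-OHT the difference was 0.38, 0.39 and -0.12 in replicates 1, 2 and 3.

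TXNIP and CAT act on oxidative stress, TXNIP as the protein that binds and blocks thioredoxin and CAT as catalase, which breaks down hydrogen peroxide. TXNIP (201010_s_at) read 179.8, 481.9 and 323.2 in PAX3-FKHR-ER cells with 4-OHT and 206.5, 410.5 and 337.3 in PAX3-FKHR-ER cells without it. The pK1 arrays read 123.2, 178.5 and 335.2 with 4-OHT and 180.7, 237.5 and 351.5 without. Replicate 1 was lowest in each group, and the change with 4-OHT in PAX3-FKHR-ER cells was -0.01 ± 0.43 (SE, 95% interval -0.95 to 0.93, limma adjusted p = 1.0). In pK1 cells the array with 4-OHT was lower in all 3 numbers (a direction 16.6% of all probe sets had), with a change of -0.32 ± 0.43 that did not pass. The same direction held there for BCL6 203140_at and CCNG2 211559_s_at.

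TXNIP was brighter in PAX3-FKHR-ER than in pK1 cells with 4-OHT by 0.60 ± 0.43 for 201010_s_at (95% interval -0.34 to 1.54, limma adjusted p = 1.0). The largest part was in replicate 2, where the difference was 1.36, against 0.49 in replicate 1 and -0.05 in replicate 3. The other 2 TXNIP probe sets had the same pattern, with 2.34 (201008_s_at) and 1.28 (201009_s_at) in replicate 2 and between -0.26 and 0.08 in replicates 1 and 3. In replicates 2 and 3 with the block, 201008_s_at reached 1.18 ± 0.56 with an adjusted p of 0.431. The excess in replicate 2 was also there without 4-OHT, at 0.75 (201010_s_at), 0.97 (201008_s_at) and 1.07 (201009_s_at). Replicates 1 and 3 ran from -0.62 to 0.48 there. In the unpaired fit of all arrays these differences without 4-OHT were 0.29 ± 0.43, 0.435 ± 0.58 and -0.01 ± 0.44, and none passed. The 201010_s_at change with 4-OHT in PAX3-FKHR-ER minus that in pK1 cells was 0.31 ± 0.61 and did not pass. The pK1 arrays of replicate 2 also had the lowest summed RD cell markers (6354 with 4-OHT, 5174 without), and the part of that in the TXNIP difference was not tested.

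CAT (201432_at) read 438.3, 175.7 and 288.8 in PAX3-FKHR-ER cells with 4-OHT and 401.3, 234.4 and 255.8 in PAX3-FKHR-ER cells without it. In pK1 cells it read 303.4, 531.7 and 317.6 with 4-OHT and 475.2, 477.7 and 303.4 without. Here too the constructs were furthest apart in replicate 2, in the opposite direction to TXNIP, by -1.51 with 4-OHT and -0.98 without. The change with 4-OHT in PAX3-FKHR-ER cells was -0.03 ± 0.35 (SE, 95% interval -0.81 to 0.74, limma adjusted p = 1.0). With the replicate block over 12 arrays it was -0.03 ± 0.17 (95% interval -0.41 to 0.34). Without 4-OHT the second CAT probe set (211922_s_at) was lower in PAX3-FKHR-ER cells by -0.71 ± 0.30. It was the only one of the 13 with an unadjusted p under 0.05 in the unpaired 12-array limma fit (0.0351), where 2.08% of all probe sets had one. Its adjusted p was 1.0, and its values overlapped, at 59.5, 31.2 and 82.0 in PAX3-FKHR-ER cells against 98.9, 128.2 and 77.0 in pK1 cells. Without replicate 1 the limma difference was -0.77 ± 0.41 with the block, with an unadjusted p of 0.103 and an adjusted p of 0.577. No probe set of the 13 was called between the constructs without 4-OHT, of 0.0% in all, nor with 4-OHT, of 0.0% in all (2.0% by unadjusted p, with 0 of the 13). In replicates 2 and 3 with the block the shares called were 0.0075% without and 0.158% with 4-OHT, and 0 of the 13 were among them. By unadjusted p there, 1 of the 13 was under 0.05 without 4-OHT, CCNG2 202769_at (9.75% of all probe sets), and 0 with 4-OHT (13.0%). The smallest adjusted p there was that of CAT 201432_at with 4-OHT, 0.397 at -0.82 ± 0.35. In the 12-array limma fit with the block, 2 of the 13 had an unadjusted p under 0.05 without 4-OHT, CCNG2 202769_at and CAT 211922_s_at. So had 981 of all 13329 probe sets. With 4-OHT 1 of the 13 had, TXNIP 201010_s_at, as had 931 of all.

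**Figure D2:**
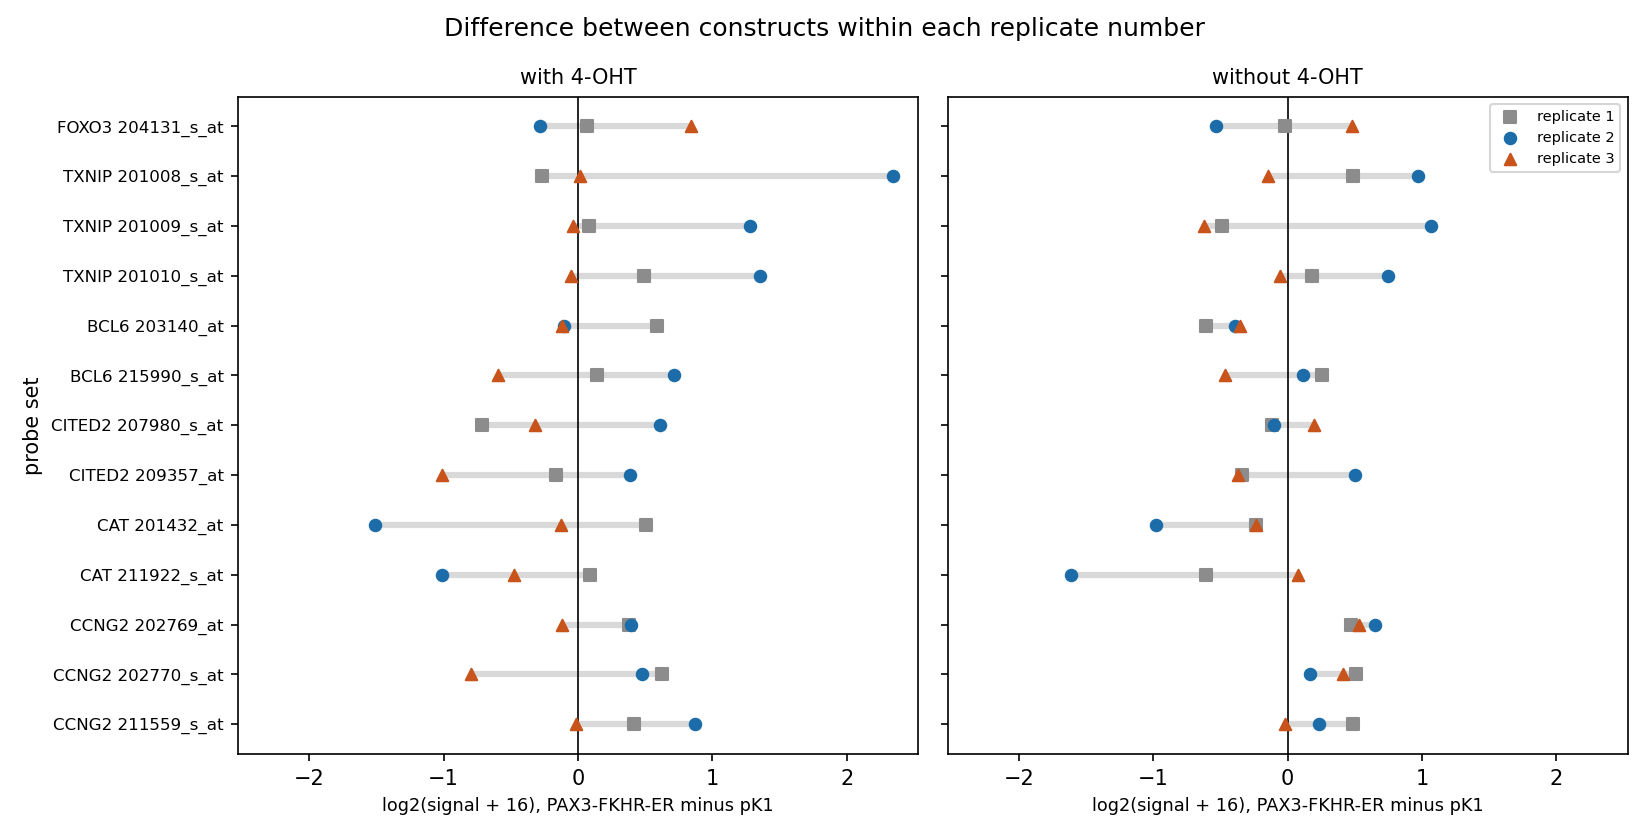
Difference of log2(signal + 16), PAX3-FKHR-ER minus pK1, within each replicate number for the 13 tested probe sets (rows), with 4-OHT on the left and without on the right; squares, circles and triangles are replicates 1, 2 and 3 and grey bars span them. With 4-OHT the TXNIP rows reach 2.34 only in replicate 2, where CAT 201432_at reaches -1.51. Without 4-OHT the TXNIP rows reach 1.07, again in replicate 2, while CCNG2 202769_at lies above 0 in all 3 numbers.

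BCL6 and CITED2 act on transcription, BCL6 as a zinc finger repressor and CITED2 as a coregulator that binds CBP and p300. BCL6 was dim, close above the filter. Its brighter probe set (203140_at) read 37.1, 38.6 and 61.2 in PAX3-FKHR-ER cells with 4-OHT and 37.2, 55.2 and 53.9 in PAX3-FKHR-ER cells without it. Its pK1 values were 19.3, 42.8 and 67.9 with 4-OHT and 65.2, 77.4 and 73.2 without. It was the only one of the 13 whose groups did not overlap, lower in PAX3-FKHR-ER than in pK1 cells without 4-OHT, where 3.08% of all probe sets were lower without overlap and 2.9% were higher. With 4-OHT, 0 of the 13 were separated between the constructs (3.18% of all higher, 2.12% lower) and 0 had 1 direction in all 3 numbers (12.6% higher, 9.88% lower). For 4-OHT, 0 of the 13 were separated in PAX3-FKHR-ER cells (1.7% of all higher, 1.7% lower) or in pK1 cells (0.983% higher, 3.28% lower). The BCL6 difference between constructs without 4-OHT was -0.45 ± 0.31 (SE, 95% interval -1.13 to 0.23, limma adjusted p = 1.0). The second BCL6 probe set (215990_s_at) gave -0.03 ± 0.31 for the same comparison, with overlapping values. The change of 203140_at with 4-OHT was -0.08 ± 0.31 in PAX3-FKHR-ER cells and -0.65 ± 0.31 in pK1 cells (limma adjusted p = 1.0 for both). With the replicate block over 12 arrays the SE in pK1 cells was 0.23 and the adjusted p 0.711. Within replicates 1, 2 and 3 the change in pK1 cells was -1.20, -0.67 and -0.09, so replicate 1 had the largest. Without replicate 1 it was -0.38 ± 0.25 with the block (adjusted p = 0.884), and leaving out 1 array at a time moved it between -0.95 and -0.32.

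CITED2 (209357_at) read 136.4, 198.3 and 119.4 in PAX3-FKHR-ER cells with 4-OHT and 107.3, 258.9 and 167.1 in PAX3-FKHR-ER cells without it. The pK1 arrays read 155.1, 147.7 and 257.1 with 4-OHT and 140.0, 178.3 and 220.1 without. In PAX3-FKHR-ER cells it was lower with 4-OHT in replicates 2 and 3, by 0.36 and 0.44, and higher in replicate 1, by 0.31. Over 12 arrays the change was -0.16 ± 0.33 (SE, 95% interval -0.88 to 0.56, limma adjusted p = 1.0). With replicates 2 and 3 paired it was -0.40 ± 0.16 (95% interval -0.76 to -0.03), the smallest p of the 13 in that comparison, with an adjusted p of 0.369. In pK1 cells the paired change of 209357_at was -0.02 ± 0.16, and the difference between the 2 changes, -0.38 ± 0.23, did not pass. Its second probe set (207980_s_at) was lower with 4-OHT in all 3 numbers of PAX3-FKHR-ER cells, by 0.28, 0.12 and 0.42. The change was -0.28 ± 0.39 over 12 arrays. In pK1 cells 207980_s_at changed by 0.32, -0.83 and 0.09. With replicates 2 and 3 paired its change was -0.27 ± 0.22 in PAX3-FKHR-ER cells and -0.37 ± 0.22 in pK1 cells.

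**Figure D3:**
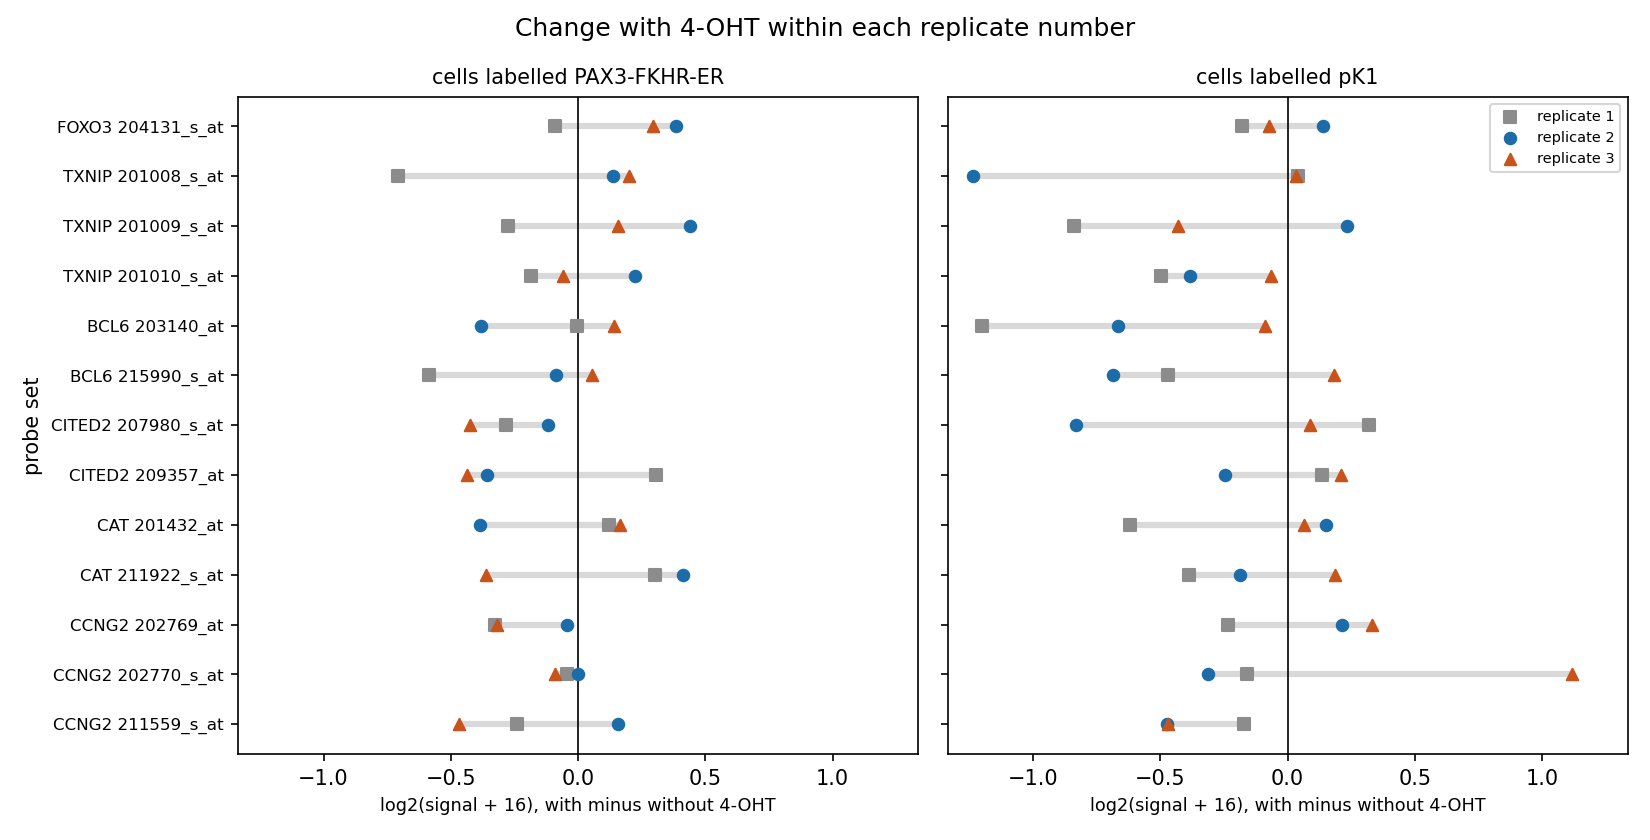
Change of log2(signal + 16), with minus without 4-OHT, within each replicate number for the 13 tested probe sets (rows), in cells labelled PAX3-FKHR-ER on the left and pK1 on the right; squares, circles and triangles are replicates 1, 2 and 3 and grey bars span them. Most rows cross 0, and in PAX3-FKHR-ER cells only CITED2 207980_s_at and CCNG2 202769_at lie below 0 in all 3 numbers.

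BCL2L11 and PDK4 were under the signal filter and outside the main fit. Without the filter limma called 0 of 22215 probe sets in each of the 5 comparisons, theirs included, and 337 to 633 had an unadjusted p under 0.05. BCL2L11 encodes BIM, a protein that starts mitochondrial cell death, and PDK4 encodes a kinase that shuts off pyruvate dehydrogenase in fasting. The brighter BCL2L11 probe set (222343_at) averaged 33.4 over the 12 arrays, just under the filter. It read 29.2, 24.8 and 31.2 in PAX3-FKHR-ER cells with 4-OHT and 26.3, 43.3 and 42.4 in PAX3-FKHR-ER cells without it. In pK1 cells it read 37.5, 25.4 and 33.5 with 4-OHT and 31.7, 30.8 and 44.1 without, so the 4 groups overlapped. The other BCL2L11 probe set (208536_s_at) averaged 8.58 and the PDK4 probe set (205960_at) 9.42, and no PDK4 value was above 22.5. Another CAT probe set (215573_at) averaged 13.1.

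By likeness over the 8 arrays of replicates 2 and 3, the closest genes to FOXO3 were RNF113A (Pearson r = 0.98) and USP24 (0.98), among 11850 probe sets with 1 symbol. To TXNIP they were GLI1 (0.98) and IGHG1 (0.98), and to CAT they were TUBB2A (0.98) and LUC7L3 (0.98). To CCNG2 they were GTSE1 (0.97) and SET (0.97), to CITED2 SEMA6A (0.96) and SEC14L1 (0.96), and to BCL6 SRD5A1 (0.96) and DGCR2 (0.95). These are the top of a long ranking over 8 arrays that share construct, treatment and number, and no listed gene was among the 2 closest to another.

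Of 21 other genes reported to respond to FOXO factors and above the filter, 3 passed for 4-OHT in PAX3-FKHR-ER cells in the paired fit of replicates 2 and 3, by 3 of their 33 probe sets, where 1.4% of all probe sets were called. GADD45A, a growth arrest and DNA damage gene, read 360.1, 1130 and 1652 in PAX3-FKHR-ER cells with 4-OHT and 292.7, 608.1 and 769.1 in PAX3-FKHR-ER cells without it. Its pK1 values were 796.7, 283.4 and 581.7 with 4-OHT and 331.6, 296.1 and 596.2 without. In replicates 2 and 3 the pK1 arrays with and without 4-OHT read almost alike, while in replicate 1 the pK1 array with 4-OHT was the far brighter of its pair. With replicates 2 and 3 paired, GADD45A rose by 0.98 ± 0.12 (SE, limma adjusted p = 0.00864) in PAX3-FKHR-ER cells. With all 12 arrays the change was 0.75 ± 0.57, with an adjusted p of 1.0, and 0.651 with the replicate block.

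CCND2, which encodes cyclin D2 and is repressed by FOXO factors, went the other way. Its brightest probe set (200953_s_at) read 2192, 1331 and 910.6 in PAX3-FKHR-ER cells with 4-OHT and 2316, 2531 and 1689 in PAX3-FKHR-ER cells without it. The pK1 arrays read 3038, 364.0 and 1220 with 4-OHT and 2755, 352.3 and 1067 without. With replicates 2 and 3 paired it fell by 0.90 ± 0.11 in PAX3-FKHR-ER cells (SE, limma adjusted p = 0.00893). With all 12 arrays the change was -0.63 ± 0.77, with an adjusted p of 1.0, and 0.627 with the replicate block. Its other 2 probe sets gave -0.47 and -0.41 in replicates 2 and 3 and did not pass.

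MAP1LC3B, an autophagosome protein, also passed. Its probe set 208786_s_at read 356.3, 664.8 and 710.0 in PAX3-FKHR-ER cells with 4-OHT and 362.8, 400.9 and 471.9 in PAX3-FKHR-ER cells without it. In pK1 cells it read 541.3, 424.3 and 535.3 with 4-OHT and 357.4, 497.0 and 563.6 without. With replicates 2 and 3 paired it rose by 0.64 ± 0.12 (SE, limma adjusted p = 0.0436), and with all 12 arrays the change was 0.42 ± 0.28 with an adjusted p of 1.0. A second MAP1LC3B probe set gave 0.73 with an adjusted p of 0.123. CCND1, which encodes cyclin D1, missed the threshold with both probe sets. For 208712_at the change was -0.78 ± 0.17 in replicates 2 and 3 (adjusted p = 0.0688) and 0.86 in replicate 1. For 208711_s_at it was -0.84 ± 0.19 in replicates 2 and 3 (adjusted p = 0.0875) and -0.79 in replicate 1.

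Of the 30 genes on that list 25 were on the array and 21 above the filter, of which 2 rose, 1 fell and 18 did not pass in that paired fit (1.4% of all probe sets called). The median change of their brightest probe sets was -0.15, against -0.02 over all probe sets tested. In pK1 cells 0 passed, with a median of 0.004. The 12-array fits called none of them, without or with the replicate block. The change in PAX3-FKHR-ER cells minus that in pK1 cells did not pass for GADD45A (1.03, limma adjusted p = 0.0863), CCND2 (-1.02, adjusted p = 0.0810) or MAP1LC3B (0.79, adjusted p = 0.164) in the paired fit of replicates 2 and 3, so these responses were not shown to differ between the constructs.

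**Figure D4:**
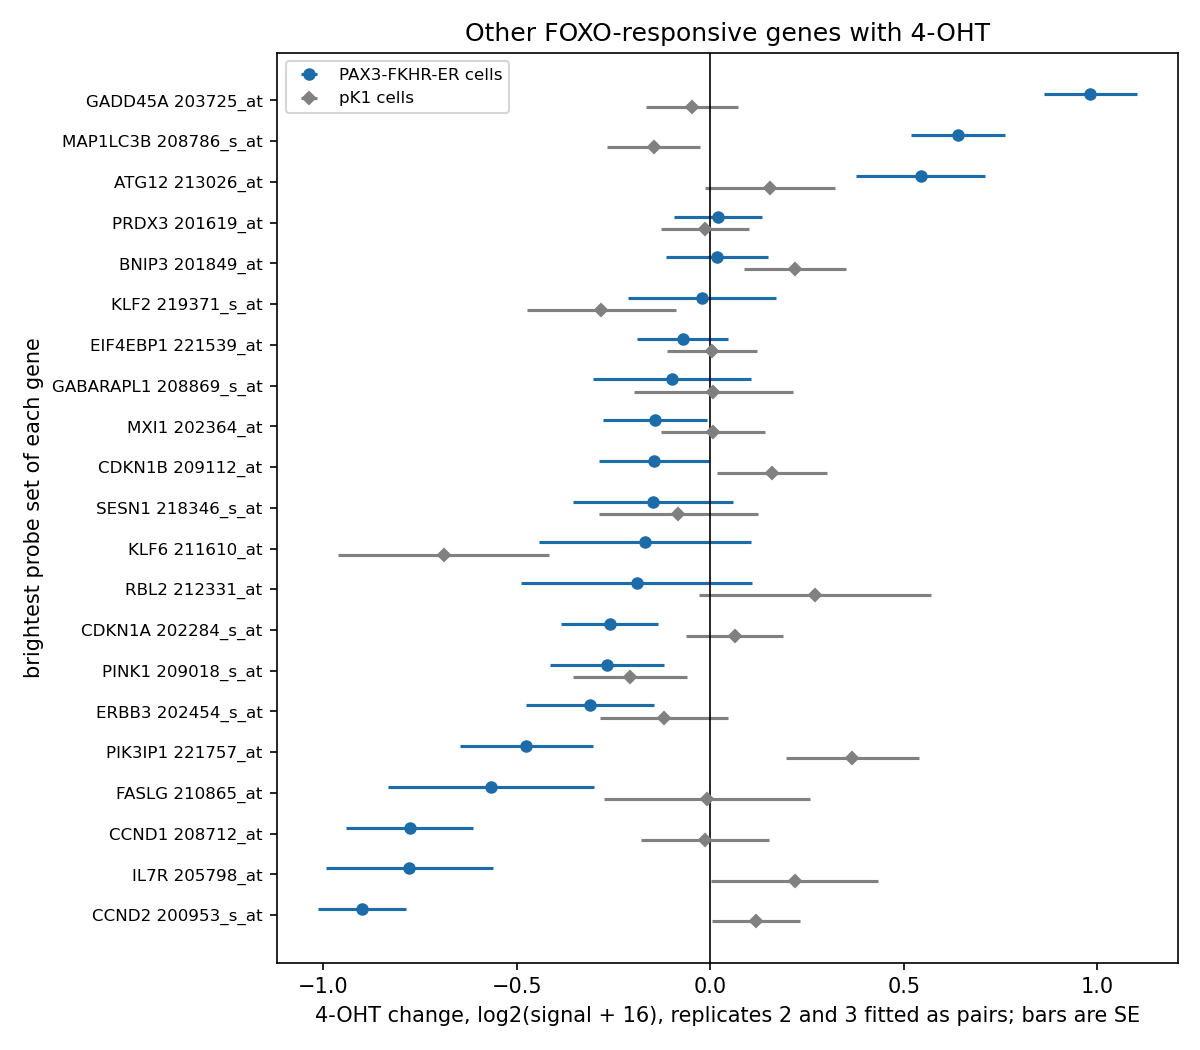
Change of log2(signal + 16), with minus without 4-OHT, of the brightest probe set of each of the 21 other FOXO-responsive genes above the filter (rows), with replicates 2 and 3 fitted as pairs; circles are PAX3-FKHR-ER cells, diamonds pK1 cells and bars the SE. GADD45A at 0.98 and MAP1LC3B at 0.64 passed on the right and CCND2 at -0.90 on the left, all in PAX3-FKHR-ER cells.

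Among the FOXO factors' partners and modifiers, 21 genes with 19 on the array and 17 above the filter, only SKP2 passed in the paired fit of replicates 2 and 3. It did so by 1 of the list's 32 probe sets, where 1.4% of all probe sets were called for 4-OHT in PAX3-FKHR-ER cells and 0.158% between the constructs with 4-OHT. SKP2 encodes the substrate subunit of a ubiquitin ligase that can mark FOXO1 for degradation. Its probe set 210567_s_at read 423.7, 674.1 and 895.7 in PAX3-FKHR-ER cells with 4-OHT and 337.4, 346.9 and 389.5 in PAX3-FKHR-ER cells without it. Its pK1 values were 1378, 106.0 and 211.5 with 4-OHT and 342.3, 205.4 and 225.9 without. With replicates 2 and 3 paired, SKP2 rose by 1.05 ± 0.19 with 4-OHT in PAX3-FKHR-ER cells (SE, limma adjusted p = 0.0327). It was also higher in PAX3-FKHR-ER than in pK1 cells with 4-OHT, by 2.25 ± 0.24 (adjusted p = 0.0385). The fit between constructs did not model the likeness of the 2 arrays of one construct and number. Its SE and adjusted p may therefore be too small. The pK1 array of replicate 1 with 4-OHT was the brightest of all 12, and with all 12 arrays the change in PAX3-FKHR-ER cells was 0.80 ± 0.68 with an adjusted p of 1.0. Of the myogenic markers, MYOD1 was higher in the same comparison of constructs (2.80 ± 0.29, adjusted p = 0.0385), and its part in the SKP2 difference was not tested. The SKP2 change in PAX3-FKHR-ER minus that in pK1 cells was 1.52 and did not pass (adjusted p = 0.0990). The other 2 SKP2 probe sets gave 0.46 and 0.93 with 4-OHT in PAX3-FKHR-ER cells and did not pass.

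The next 3 partners by p in that comparison did not pass. SFN, a 14-3-3 protein (33323_r_at), had a change of -0.62 with an adjusted p of 0.176. SIRT2, a deacetylase, had -0.42 (0.217), and FOXO1 (202723_s_at) had -0.63 (0.285), a probe set that may read the construct as well as the cell's own gene. The partners' median change was 0.05.

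The insulin and AKT pathway upstream of FOXO had no gene past the threshold. Of its 18 genes 13 were on the array and 12 above the filter, with a median change of 0.06 with 4-OHT in PAX3-FKHR-ER cells of replicates 2 and 3. The smallest p-values were those of PDPK1, the kinase that activates AKT (-0.40, limma adjusted p = 0.346), SGK1, which can phosphorylate FOXO3 (0.27, 0.504), PIK3CB, a catalytic subunit of PI3 kinase (0.49, 0.555), and IRS1, an adaptor of the insulin receptor (-0.31, 0.587).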

How the data were processed

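Each of the 12 samples of RD cell RNA was hybridised to its own Affymetrix U133A array. The deposited values are probe set intensities on a linear scale; per the submitters' processing notes the authors used MAS5 and GCOS. Versions, and the target of any scaling, are not given in the sources used here. The intensities were not scaled again. The number of arrays and the spread between replicate numbers limit the precision. From 22283 probe sets, 68 controls and the dimmest 40% by mean signal (under 36.7) were dropped, and 13329 were tested. Probe sets were named from the array annotation where it gave 1 symbol. Group means of log2(signal + 16), a scale that understates changes of dim genes, were fitted with limma 3.58.1 in R 4.3.3 (eBayes with an intensity trend) over all 12 arrays, for 5 contrasts. Tests were two-sided, with Benjamini-Hochberg adjustment over all 13329 probe sets and a threshold of 0.05. Per-sample values are signals on the linear scale, and changes and their SE are log2 differences. The script was tested on simulated data with planted changes far larger than those of the listed genes, so that test does not measure power here.

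The listed genes, the pathway lists, the fits and the rule for named genes (every listed gene, and from each pathway list the 4 with the smallest p for 4-OHT in PAX3-FKHR-ER cells of replicates 2 and 3, plus any that passed) were chosen with earlier results of these data known. That includes the fit of replicates 2 and 3. Deviations from group means correlated between same-numbered arrays at 0.70 to 0.85 for 4-OHT in PAX3-FKHR-ER cells, 0.79 to 0.82 in pK1 cells and 0.15 to 0.69 between constructs, all over 0.1, so blocked fits are given (for 4-OHT a block is the 2 arrays of one construct and number, between constructs it is the number). As replicate 1 stands apart, that rule could be met without true pairing of constructs. The blocked fits between constructs do not model the likeness of the 2 arrays of one construct and number. Their SE and adjusted p may therefore be too small. There were 24 alternatives, 12 that change a setting and 12 that leave out 1 array. Promoter windows came from a RefSeq table of GRCh38.p14. Protein sequences were not used here.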

Additional observations from a re-analysis of the deposited data

Results flagged for a closer look

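The brightest CCND2 probe set (200953_s_at) moved in opposite directions with 4-OHT in the constructs, in every replicate number. The changes of log2(signal + 16) were -0.08, -0.92 and -0.88 in PAX3-FKHR-ER cells and 0.14, 0.05 and 0.19 in pK1 cells, for replicates 1, 2 and 3. The change in PAX3-FKHR-ER cells minus that in pK1 cells was -0.75 over 12 arrays (SE 1.09, limma adjusted p = 1.0), and -1.02 with replicates 2 and 3 paired (adjusted p = 0.0810), so the difference did not pass. The other CCND2 probe sets did not have this pattern in all 3 numbers. The share of all probe sets with such a pattern was not counted.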

How the results depend on the processing

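Of 877 values of 37 results under 24 alternatives, 818 kept their direction and side of the threshold, 5 passed that had not, and 54 changed sign. Leaving out any 1 array left each of the 5 counts of called probe sets at 0.0. The 8 arrays of replicates 2 and 3 gave 13 called probe sets between constructs with 4-OHT, and 21 with the replicate block. That paired fit also gave 186 for 4-OHT in PAX3-FKHR-ER cells and 7 for the difference of changes, and it is where GADD45A, CCND2, MAP1LC3B and SKP2 passed. The replicate block over 12 arrays called 0. The cause was not tested. None of the sign changes among the listed genes was of a called value. TXNIP for 4-OHT in PAX3-FKHR-ER cells turned to 0.0003 with 64 added, to 0.017 with equal array medians and to 0.082 in replicates 2 and 3. With equal medians FOXO3 turned to 0.063 for 4-OHT in pK1 cells and to 0.012 between constructs without 4-OHT. In replicates 2 and 3, with or without the block, FOXO3 and CAT turned to 0.033 and 0.11 and CITED2 to -0.019 for 4-OHT in pK1 cells, CAT to -0.22 for the difference of changes, BCL6 to -0.11 between constructs with 4-OHT and CITED2 to 0.067 between them without it. Leaving out 1 array at a time moved the change with 4-OHT in PAX3-FKHR-ER cells between -0.25 and 0.016 for BCL6, -0.34 and 0.29 for CAT, -0.46 and 0.047 for CCNG2, -0.45 and 0.13 for CITED2, -0.32 and 0.35 for TXNIP and -1.16 and 0.49 for CCND1. In pK1 cells it moved between -0.39 and 0.0039 (CAT), -0.079 and 0.42 (CCNG2), -0.20 and 0.18 (CITED2) and -0.41 and 0.25 (FOXO3). The difference of changes moved between -0.20 and 0.42 (CAT), -0.48 and 0.095 (CITED2), -0.051 and 0.61 (FOXO3) and -0.0078 and 0.67 (TXNIP). Between constructs the ranges with 4-OHT were -0.21 to 0.41 (BCL6), -0.012 to 0.41 (CCNG2) and -0.077 to 0.58 (FOXO3), and without it -0.36 to 0.22 (CITED2) and -0.30 to 0.26 (FOXO3). For 4-OHT in PAX3-FKHR-ER cells the 95% intervals of the 13 probe sets ended between -1.40 and -0.54 below and between 0.37 and 1.15 above in the unpaired 12-array fit, and between -0.73 and -0.13 below and between 0.094 and 0.56 above with the replicate block. BCL2L11 and PDK4 were tested only without the signal filter, where limma called 0 of 22215 probe sets in each of the 5 comparisons (337 to 633 had an unadjusted p under 0.05), and FBXO32 has no test here. The paired fit rests on 2 pairs per construct.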
